A study of Mus musculus with 7 samples.

Results

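The genes described here are 10 enzymes that reduce, oxidise or hydrolyse reactive quinones, carbonyls, aldehydes and epoxides: Nqo1, Cbr1, Cbr3, Akr1b3, Akr1b8, Akr1c13, Akr1c14, Ptgr1, Aldh3a1 and Ephx1. They were taken as a list of names and matched by symbol to the Ensembl identifiers of the count tables, and they make up 10 of 46603 gene rows. The list was chosen with earlier results of these data known, so its counts set against all genes are descriptive only. The RNA came from TRAMP-C1, a mouse line labelled as prostate epithelial and derived from a prostate tumour of the TRAMP transgenic mouse (strain label C57BL/6-TgN(TRAMP)8247Ng), so all groups carry that transgene. Of 7 libraries, 3 came from cells transduced with a PAX8-NFE2L2 fusion gene in the Lv229 lentiviral plasmid, 3 from cells given the matching empty vector, and 1 was labelled WT, with no vector named in its label. Transduced cells stood with virus for 12 h and then grew in fresh medium for 24 h. Polyadenylated RNA was read as 50 bp single-end reads. Whether the replicates were grown as separate cultures is not labelled, so each p-value reflects spread among these particular libraries, and that spread may be technical.

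NFE2L2 (NRF2) is a transcription factor that KEAP1 marks for degradation and that binds antioxidant response elements when it is released from KEAP1. Quinone and carbonyl reductases, aldo-keto reductases and glutathione enzymes are among its textbook targets, and NQO1 is the most widely used marker of its activity. These enzymes use NAD(P)H to turn reactive carbonyls and quinones into alcohols and hydroquinones, while aldehyde dehydrogenases oxidise aldehydes to acids and epoxide hydrolases open epoxides to diols.

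Between 26368182 and 59597170 reads were assigned to genes per library. Pax8 counts checked the labels: they came to 0.0334, 0.0358 and 0.217 CPM (counts scaled to a common library size) with empty vector, 6.40, 8.53 and 5.57 CPM with the fusion, and 0.0401 CPM in WT. Nfe2l2 lay between 111 and 125 CPM with empty vector and between 123 and 145 CPM with the fusion, ranges that overlap. Both values come from reads on the mouse genes, Pax8 overlaps the antisense gene Gm13415, and the labels do not say of which species the fusion's coding sequence is. The labelled epithelial identity was not borne out by its markers: of 7 epithelial genes only Krt19 exceeded 10 CPM in all libraries, while all 6 mesenchymal genes did and summed to 9840 to 18700 CPM. The summed epithelial markers ranged from 39.8 to 79.8 CPM with empty vector and from 19.4 to 52.6 CPM with the fusion. Most of that sum was Krt19, at a mean of 58.1 CPM with empty vector and 21.3 CPM with the fusion, while Krt18 rose from 0.829 to 5.92 CPM (edgeR adjusted p = 0.03) and Cdh1 was at 0.75 and 2.21 CPM (0.23), both without overlap. The summed mesenchymal markers overlapped, at 9840 to 18600 and 11000 to 17500 CPM. The part of these markers in the results below was not tested. In bulk RNA, fewer cells of a type and less RNA per cell cannot be told apart.

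Most of the 10 genes were higher with the fusion, by 4.03-fold (Akr1c14) to 26.1-fold (Aldh3a1) between the group means of those that passed the test. Nqo1, Cbr1, Cbr3, Akr1c14, Aldh3a1 and Ephx1 rose, that is 6 of 10 at an edgeR adjusted p under 0.05, where 1.69% of the 16731 genes tested were called higher. None of the 10 fell, and 0.353% of all genes tested were called lower. Akr1b3, Akr1b8, Akr1c13 and Ptgr1 did not pass. The median log2 fold change of the 10 genes was 2.13, against 0.01 over all genes tested. Every fusion library lay above every empty vector library for 8 of 10 genes, an order found in 9.15% of all genes tested, and the reverse order held for 0 of 10 genes and 6.66% of all genes. Summed over the 10 genes, the level was 434 CPM in WT, 370, 376 and 357 CPM with empty vector, and 1210, 1490 and 1780 CPM with the fusion. All 10 passed the filter on low counts.

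**Figure D1:**
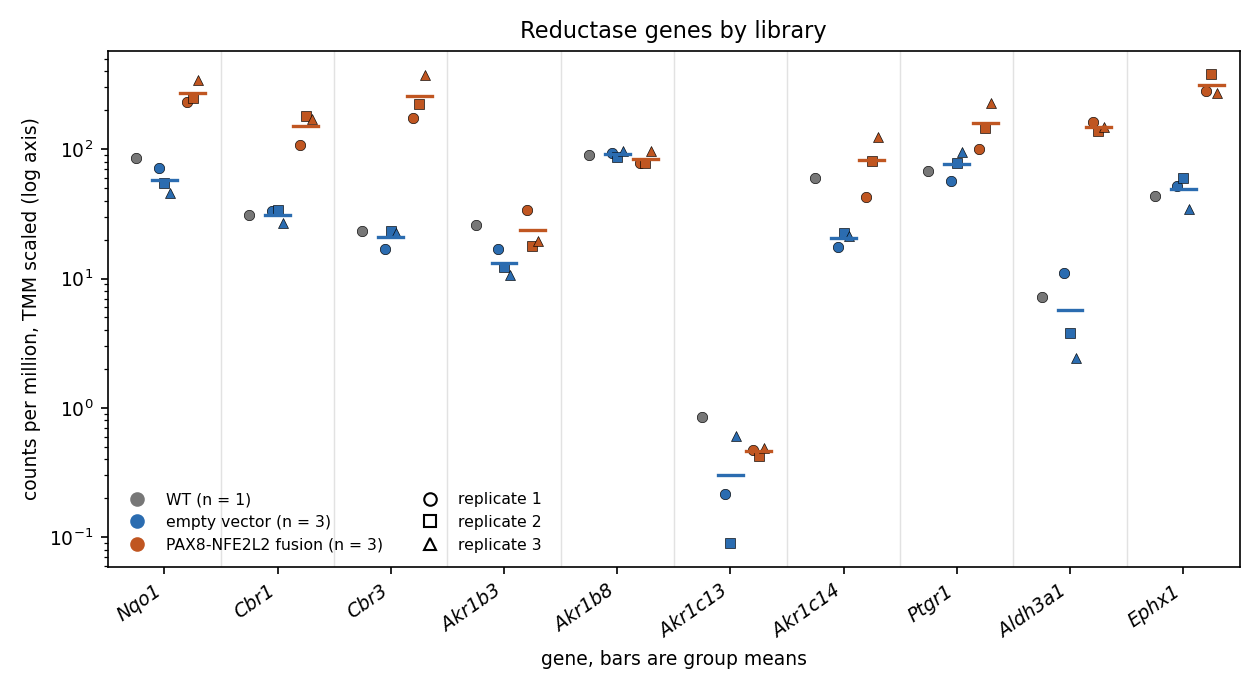
CPM (log axis) of the 10 genes in each library, with WT in grey, empty vector in blue, the fusion in orange, marker shapes for replicate numbers and bars for group means. The orange points lie above the blue ones for 8 genes, Akr1b8 keeps its points between 78.4 and 96.2 in all 7 libraries, and Akr1c13 lies below 1.

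The sequences before the start sites of 3 genes that rose and of Akr1b8, which did not pass, are shown because NRF2 targets are commonly defined by an antioxidant response element near or upstream of the promoter. They come from RefSeq on GRCm38.p6, without annotated exon bases, and read 5′ to 3′ along the gene's strand. The Nqo1 stretch is chr8:107403207-107403455 on the minus strand, and the others lie on the plus strand: chr16:93607587-93607836 for Cbr1, chr16:93682969-93683214 for Cbr3 and chr6:34353896-34354118 for Akr1b8. Capitals mark the letters GGGCGG, known as the Sp1 motif, those of the core element of the aryl hydrocarbon receptor, GCGTG, and those of the box commonly found before start sites, TATAAA, on either strand, so a capital run can also be the complement of these letters read on the other strand.
Nqo1: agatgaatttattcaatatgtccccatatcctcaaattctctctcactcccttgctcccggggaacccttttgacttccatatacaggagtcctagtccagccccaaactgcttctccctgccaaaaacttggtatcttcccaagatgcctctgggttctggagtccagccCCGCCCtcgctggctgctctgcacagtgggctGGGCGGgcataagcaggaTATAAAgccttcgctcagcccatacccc
Cbr1: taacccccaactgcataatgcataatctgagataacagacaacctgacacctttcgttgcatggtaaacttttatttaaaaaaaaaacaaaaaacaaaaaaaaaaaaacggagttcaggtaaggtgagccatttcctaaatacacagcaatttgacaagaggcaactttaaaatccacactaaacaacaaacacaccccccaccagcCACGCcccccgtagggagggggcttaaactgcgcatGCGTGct
Cbr3: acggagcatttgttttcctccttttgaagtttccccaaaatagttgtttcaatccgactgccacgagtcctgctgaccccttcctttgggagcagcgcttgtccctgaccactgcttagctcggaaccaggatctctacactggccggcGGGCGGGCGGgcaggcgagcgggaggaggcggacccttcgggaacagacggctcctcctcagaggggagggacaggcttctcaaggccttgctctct
Akr1b8: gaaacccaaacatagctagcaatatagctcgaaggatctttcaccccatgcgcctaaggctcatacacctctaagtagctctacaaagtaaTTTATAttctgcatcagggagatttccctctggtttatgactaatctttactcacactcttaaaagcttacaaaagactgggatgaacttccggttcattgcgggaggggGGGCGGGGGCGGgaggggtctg
The promoter table held windows of 300 bases, 250 before the start and 50 after it, for 8 of the 10 genes, all but Akr1b3 and Aldh3a1. None of the 8 windows held the core antioxidant response element TGACNNNGC on either strand, and 12.4% of 32851 promoter windows did. The windows of Cbr1, Akr1c14 and Ephx1 lay inside the annotated gene, so sequence before its outermost annotated start was not searched. GCGTG stood in the windows of Cbr1, Akr1b8 and Akr1c14 and in 32.4% of all windows. A pair of GGGCGG copies stood in each of the windows of Nqo1, Cbr3, Akr1b8, Ptgr1 and Ephx1, and 35.7% of all windows held at least a single copy. TATAAA began at position -29 from the start in Nqo1, at -214 in Ephx1 and on the other strand at -159 in Akr1b8, and 13.6% of all windows held it. The last 3 motifs were chosen after the sequences were seen. A match describes letters and is neither a site nor a cause, and no match says only that these letters are not in this window. Genes of both kinds, those that rose and those that did not pass, shared the letters GGGCGG.

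Nqo1 (ENSMUSG00000003849.8, chr8:107388225-107403206, minus strand, GRCm38) encodes NAD(P)H quinone dehydrogenase, which reduces quinones straight to hydroquinones without releasing the semiquinone radical. It stood at 71.9, 55.2 and 46.1 CPM with empty vector, 230, 248 and 343 CPM with the fusion, and 85.6 CPM in WT. The groups did not overlap, and WT lay above all 3 empty vector libraries and below all 3 fusion libraries. Nqo1 rose by a log2 fold change of 2.24 ± 0.26 (SE; 95% interval 1.65 to 2.83; edgeR adjusted p = 0.0052). Nqo2, the related quinone reductase that takes dihydronicotinamide riboside as its cofactor, was at 33.2 ± 4.04 CPM (SD, n = 3) with empty vector and 34.0 ± 6.75 CPM with the fusion. Its log2 fold change was 0.03, with a 95% interval of -0.47 to 0.53. An antisense gene, Serpinb6a, overlaps 762 of its exon bases, so its reads cannot be assigned with certainty if counting ignored strand.

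Cbr1 (ENSMUSG00000051483.8) and Cbr3 (ENSMUSG00000022947.7) encode the cytosolic carbonyl reductases, short-chain enzymes that reduce ketones such as prostaglandins, menadione and anthracycline drugs. The genes are neighbours on chromosome 16, 72709 bp apart, each with 277 codons, and their coding sequences match at 77.8% of aligned bases. Cbr1 stood at 33.2, 33.7 and 26.8 CPM with empty vector, 108, 179 and 170 CPM with the fusion, and 30.9 CPM in WT. Cbr3 stood at 16.9, 23.4 and 22.5 CPM with empty vector, 174, 222 and 376 CPM with the fusion, and 23.5 CPM in WT. In both genes every fusion library was higher than every other library. The log2 fold change of Cbr1 was 2.29 ± 0.25 (edgeR adjusted p = 0.0042). That of Cbr3 was 3.62 ± 0.34 (edgeR adjusted p = 0.0022).

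The ratio of both carbonyl reductases was also read within each library, where scaling cancels. With empty vector the log2 ratio of Cbr3 to Cbr1 counts was -0.97, -0.53 and -0.25, and with the fusion it was 0.68, 0.32 and 1.14, so that Cbr3 had fewer counts than Cbr1 in every empty vector library and more in every fusion library. WT was at -0.40. The means differed by 1.30, and the ratios did not overlap. The exact two-sided permutation test gave p = 0.1, which is the smallest p that 3 against 3 libraries allow (0.15 adjusted over the 3 paralog pairs compared). Only 4.12% of the 50-base stretches of the Cbr1 transcript and 0.0892% of those of Cbr3 also occur elsewhere among annotated transcripts. The check covered 1 transcript per gene, with 1237 of 2554 annotated exon bases for Cbr1. It used exact matches among transcripts only, so reads that also align elsewhere in the genome were not examined. None of the 4 other short-chain carbonyl reductases listed passed: Dcxr, which reduces xylulose, had a log2 fold change of -0.52, Cbr2 of -0.22, Cbr4 of -0.18 and Dhrs4 of 0.27.

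Of the 4 aldo-keto reductases on the list, Akr1c14 passed and Akr1b3, Akr1b8 and Akr1c13 did not. Akr1c14 (ENSMUSG00000033715.13, chr13:4049011-4090688, plus strand) encodes a hydroxysteroid dehydrogenase that inactivates dihydrotestosterone. It stood at 17.4, 22.5 and 21.4 CPM with empty vector and at 42.4, 81.3 and 124 CPM with the fusion, without overlap. WT was at 59.7 CPM, inside the fusion range and above all empty vector libraries. The log2 fold change over empty vector was 2.01 ± 0.37 (edgeR adjusted p = 0.035). The call depended on single libraries: the edgeR adjusted p was 0.089 without empty vector replicate 1, 0.12 without replicate 2, 0.072 without replicate 3 and 0.10 without fusion replicate 2. A gene on the same strand, Gm18857, overlaps 234 of its exon bases, and such reads count for neither gene if counted as ambiguous.

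Akr1b8 (ENSMUSG00000029762.6, chr6:34354119-34368463, plus strand) encodes an aldose-reductase-like enzyme that reduces aliphatic aldehydes and retinal. It stood at 93.6, 87.3 and 96.0 CPM with empty vector, 78.4, 78.8 and 96.2 CPM with the fusion, and 89.6 CPM in WT. All 7 libraries fell within this narrow band and the groups overlapped. The log2 fold change was -0.13 ± 0.18 (edgeR adjusted p = 0.96), and its 95% interval, -0.55 to 0.29, leaves out changes of the size seen in Nqo1, Cbr1 or Cbr3. Its closest relative on the list, Akr1b3 (ENSMUSG00000001642.17), encodes aldose reductase, which turns glucose into sorbitol, and lies 36640 bp away on chromosome 6 with 72.1% of aligned coding bases in common.

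Akr1b3 stood at 16.9, 12.2 and 10.7 CPM with empty vector, 33.6, 17.7 and 19.5 CPM with the fusion, and 25.7 CPM in WT. The fusion libraries lay above the empty vector libraries, by a margin of 17.7 against 16.9 CPM at the edge, and WT lay inside the fusion range. The log2 fold change was 0.83 ± 0.31 with an edgeR adjusted p of 0.33. With the replicate number as a block it was 0.80, and edgeR's adjusted p was 0.012. Of the 50-base stretches of its transcript, 86.2% also occur in other annotated transcripts, mostly the pseudogenes Gm38056, Gm6644, Gm6736 and Gm12138. The check covered 1 transcript, with 1387 of 8384 annotated exon bases, and the other exon bases were not checked. Reads with several alignments were not given to a gene in the deposited tables. The Akr1b3 values thus leave out most of this transcript, and the level of Akr1b3 is uncertain. The log2 ratio of Akr1b8 to Akr1b3 counts was 2.47, 2.84 and 3.16 with empty vector and 1.22, 2.15 and 2.30 with the fusion, a difference in means of -0.93 without overlap (exact two-sided permutation p = 0.1, 0.15 adjusted over 3 pairs).

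Akr1c13 (ENSMUSG00000021213.10), a hydroxysteroid dehydrogenase related to Akr1c14, had few counts. There were 13, 5 and 25 counts with empty vector, 25, 23 and 13 counts with the fusion and 42 counts in WT, or 0.217, 0.0895 and 0.602 CPM, 0.476, 0.421 and 0.486 CPM, and 0.842 CPM. The groups overlapped and the log2 fold change of 0.64 had a 95% interval from -0.80 to 2.08 (edgeR adjusted p = 0.90). This interval does not leave out a change of the size fitted for Akr1c14. Of its 50-base stretches, 28.6% are shared with Akr1c12. The log2 ratio of Akr1c13 to Akr1c14 counts averaged -6.48 ± 1.42 (SD, n = 3) with empty vector and -7.35 ± 0.78 with the fusion, and the ratios overlapped.

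Of 13 further aldo-keto reductase genes, 7 had too few counts to be tested and none of the 6 tested passed. Akr1a1, which reduces aldehydes such as glucuronate and was the most abundant of them, was at 494 ± 44.6 CPM with empty vector and 496 ± 95.3 CPM with the fusion (SD, n = 3), a log2 fold change of 0.01 with a 95% interval of -0.48 to 0.49. Akr1b10, next to Akr1b8, was at 22.8 ± 8.54 and 17.3 ± 6.43 CPM. The largest fitted change in this family outside the list belonged to Akr1c18, an enzyme that inactivates progesterone, at 1.22 (edgeR adjusted p = 0.24), with levels below 1 CPM in every library.

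Ptgr1 (ENSMUSG00000028378.6, chr4:58965439-58987119, minus strand) encodes prostaglandin reductase, which reduces the double bond of alkenals such as hydroxynonenal and of oxidised prostaglandins and leukotrienes. It stood at 56.6, 77.7 and 95.7 CPM with empty vector, 100, 147 and 227 CPM with the fusion, and 67.4 CPM in WT. The groups did not overlap, though the highest empty vector library came within a few CPM of the lowest fusion library. Within each replicate number, the fusion library was 1.77, 1.89 and 2.37 times its empty vector counterpart, ratios closer to each other than the levels were. The log2 fold change was 1.04 ± 0.33 with an edgeR adjusted p of 0.22, and with the replicate block 1.00 ± 0.10 with an edgeR adjusted p of 0.003. Its relatives Ptgr2 and Zadh2 had log2 fold changes of -0.23 and 0.39, and neither passed with or without the block.

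Aldh3a1 (ENSMUSG00000019102.9, chr11:61207537-61218421, plus strand) encodes a cytosolic dehydrogenase that oxidises medium-chain and aromatic aldehydes, known as a crystallin of the cornea. It stood at 11.0, 3.78 and 2.41 CPM with empty vector, 161, 139 and 148 CPM with the fusion, and 7.17 CPM in WT. It had the largest fold change of the 10 genes, 4.70 ± 0.56 on the log2 scale (95% interval 3.41 to 5.99; edgeR adjusted p = 0.0055), and ranked 74 of 16731 genes tested by log2 fold change. The fusion libraries were close together, while the empty vector libraries were spread, and WT lay among the latter. By replicate number, the fusion library was therefore 14.7, 36.7 and 61.4 times its empty vector counterpart. Aldh3a2, its neighbour on chromosome 11 and the fatty aldehyde dehydrogenase, had a log2 fold change of 0.20 with a 95% interval of -0.29 to 0.69. Aldh3b1, which acts on lipid aldehydes, stood at 7.42, 8.45 and 15.3 CPM with empty vector and 21.1, 30.5 and 38.6 CPM with the fusion. Its log2 fold change was 1.53 ± 0.35 with an edgeR adjusted p of 0.08, and edgeR's adjusted p with the replicate block was 0.0016.

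Ephx1 (ENSMUSG00000038776.12, chr1:180976210-181020904, minus strand) encodes microsomal epoxide hydrolase, which opens epoxides formed by cytochrome P450 enzymes. It stood at 52.3, 60.1 and 34.5 CPM with empty vector, 283, 380 and 273 CPM with the fusion, and 43.7 CPM in WT. Every fusion library exceeded every other library, and WT lay inside the empty vector range. Ephx1 rose by a log2 fold change of 2.67 ± 0.27 (edgeR adjusted p = 0.0032). Of the other epoxide hydrolases, Ephx2, the soluble enzyme, had 0, 4 and 13 counts with empty vector and 9, 20 and 61 with the fusion, groups that overlap. Its log2 fold change of 2.90 ± 1.30 had an edgeR adjusted p of 0.46, and of 0.022 with the replicate block. Ephx4 had a log2 fold change of 0.20 at levels below 1 CPM, and Ephx3 had too few counts to be tested.

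**Figure D2:**
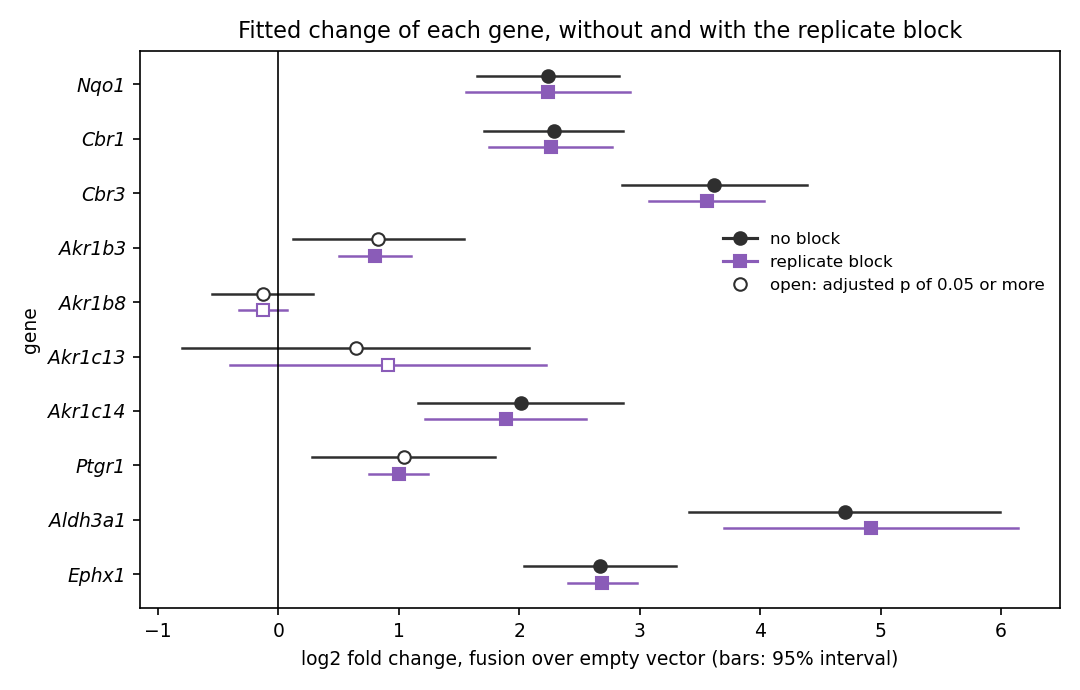
Log2 fold change of the 10 genes, fusion over empty vector, without the replicate block (black circles) and with it (purple squares). Bars are 95% intervals derived from the edgeR test, and symbols are filled where the adjusted p is under 0.05. The intervals of Akr1b8 and Akr1c13 cross 0 in both fits, and Akr1b3 and Ptgr1 turn from open to filled with the block.

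The libraries numbered alike in both groups deviated together, and the fit with the replicate number as a block raised the count of genes passing to 8 of 10, all higher, by adding Akr1b3 and Ptgr1. Without number 1 in both groups the blocked edgeR adjusted p of Akr1b3 was 0.062. In the block fit over all fusion and empty vector libraries, 7.63% of all genes tested were called higher and 5.50% lower, so more of the whole transcriptome passed too. Akr1b8, at -0.13 with a 95% interval of -0.33 to 0.07, and Akr1c13, at 0.91 with an interval of -0.40 to 2.22, were the members that passed in neither fit.

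The 6 genes that rose did not share a starting level. Per kb of transcript, Akr1b8 had the highest level with empty vector, 68.0 ± 3.30 CPM per kb (SD, n = 3), above Nqo1 at 37.2, Ptgr1 at 33.4, Ephx1 at 28.1 and Cbr1 at 25.3, and the last 4 overlapped their neighbours in this order. Cbr3 followed at 17.9, Akr1b3 at 9.58, Akr1c14 at 6.42, Aldh3a1 at 3.31 and Akr1c13 at 0.24 CPM per kb, and only Akr1c14 and Aldh3a1 overlapped among these. In the fusion libraries Cbr3 came first at 220 ± 90.3 CPM per kb, overlapping Ephx1 at 179 ± 34.0, which overlapped Nqo1 at 176 ± 39.1. Cbr1 at 123, Aldh3a1 at 86.3, Ptgr1 at 68.8 and Akr1b8 at 62.2 CPM per kb formed a run in which each overlapped the next. Akr1c14 at 25.9 and Akr1b3 at 17.0 overlapped, and Akr1c13 stayed last at 0.365 CPM per kb. The place of Akr1b3 in both orders is uncertain, since most of its checked transcript is shared with other genes. Aldh3a1, 9th of 10 genes with empty vector, was 5th with the fusion, and Akr1b8 went from 1st to 7th without a detectable change of its own.

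**Figure D3:**
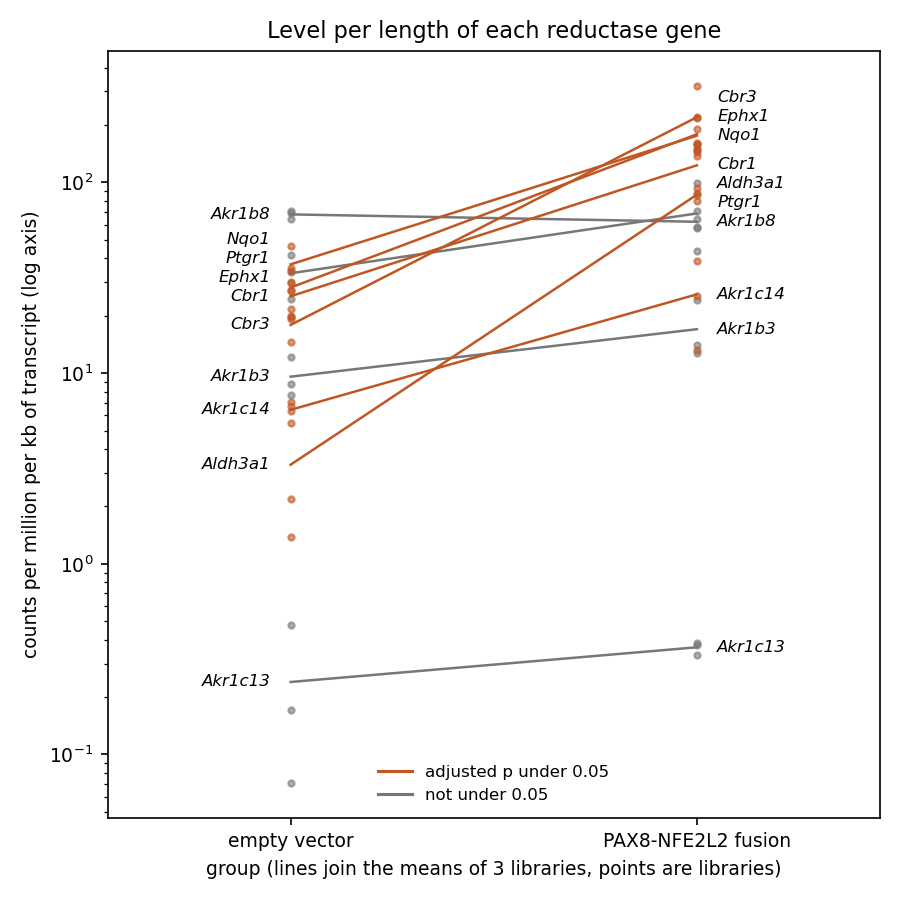
CPM per kb of transcript (log axis) of the 10 genes with empty vector and with the fusion, where points are libraries, lines join the means of 3 libraries and orange marks genes with an edgeR adjusted p under 0.05. All orange lines but that of Akr1c14 cross the line of Akr1b8, which starts highest at 68.0 and ends at 62.2, and Aldh3a1 climbs from 3.31 to 86.3.

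Against the relatives, the change was uneven within families. Of 29 related genes listed by role, 20 could be tested and 0 passed in either direction without the block by edgeR, the smallest adjusted p being 0.08 for Aldh3b1. That fit called 1.69% of all genes tested higher and 0.353% lower, so 0 of 20, like 0 within a family, is near these shares. DESeq2 called Aldh3b1 higher (log2 fold change 1.52, adjusted p = 0.0015) and no other of the 20 in either direction. It called 3.72% of all genes higher and 1.79% lower, so that count is near its shares too. With the block, 2 were higher (Aldh3b1 and Ephx2) and 1 lower, Cyb5r1, a cytochrome b5 reductase that stood at 107, 124 and 95.3 CPM with empty vector and 69.3, 85.2 and 59.1 CPM with the fusion (edgeR adjusted p = 0.0055 with the block and 0.28 without it). These counts of 20 are near the shares of all genes called in that fit, 7.63% higher and 5.50% lower. The median log2 fold change of the 20 genes was 0.08. Por, which passes single electrons to cytochrome P450 and can turn quinones into semiquinones, had a log2 fold change of 0.13 with a 95% interval of -0.49 to 0.75. Cyb5r3 had one of 0.17.

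**Figure D4:**
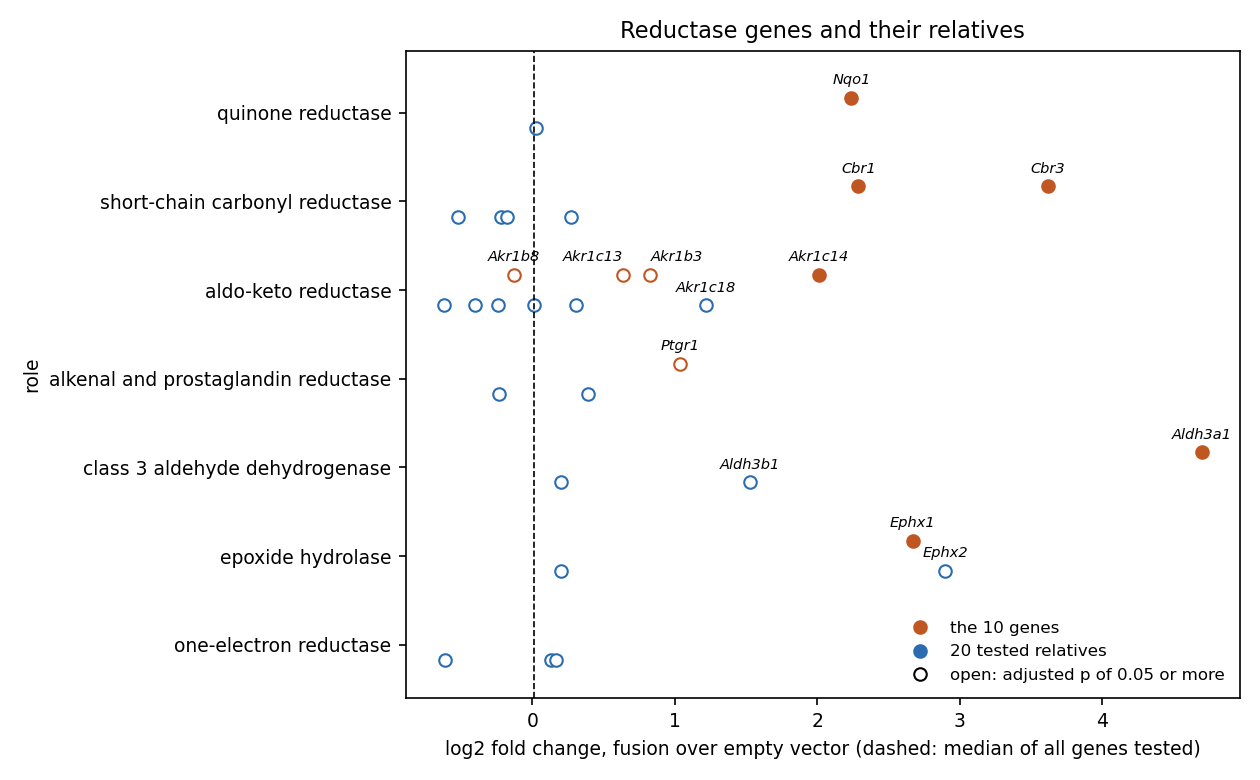
Log2 fold change, fusion over empty vector, of the 10 genes (orange) and their 20 tested relatives (blue) by role, filled where edgeR's adjusted p is under 0.05, with the median of all genes tested as a dashed line. All filled points belong to the 10 genes, and the labelled relatives Akr1c18, Aldh3b1 and Ephx2 are open.

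Nqo1 and Aldh3a1 are textbook targets of the aryl hydrocarbon receptor as well as of NRF2, so the genes of that pathway were read beside them. Ahr, the receptor itself, rose from 20.5, 22.9 and 19.3 CPM with empty vector to 51.0, 76.5 and 56.1 CPM with the fusion, with 9.06 CPM in WT (log2 fold change 1.55 ± 0.22; edgeR adjusted p = 0.012). Cyp1b1, a P450 that the receptor induces, rose from 48.8, 53.2 and 54.4 CPM to 142, 127 and 131 CPM, with 65.4 CPM in WT (1.36 ± 0.18; edgeR adjusted p = 0.0074). In both genes the groups did not overlap. Of 6 genes listed 5 were tested. Without the block, edgeR called 2 higher and 0 lower, where it called 1.69% of all genes higher and 0.353% lower. DESeq2, which called 3.72% of all genes higher and 1.79% lower, called 4 of the 5 higher, adding Cyp1a1 (adjusted p = 0.0011) and Ahrr (0.024). Cyp1a1, the classical marker of receptor activity, was at 0.334, 0.179 and 0.0722 CPM with empty vector and 1.31, 0.751 and 1.50 CPM with the fusion (edgeR adjusted p = 0.068, and 0.024 with the block). Ahrr, the receptor's repressor, had a log2 fold change of 1.21 (edgeR adjusted p = 0.14, and 0.042 with the block), and Tiparp, another induced gene, one of -0.47 with overlapping groups. With the block, edgeR called 4 of the 5 higher and 0 lower, where it called 7.63% of all genes higher and 5.5% lower. Cyp1a2 had 0 counts in all libraries. Whether these changes bear on Nqo1 and Aldh3a1 was not tested.

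The WT library, being single, has no spread of its own, and its tests assume that it varies like the other libraries. They also share libraries with the first comparison, so they are not independent of it. Between empty vector and WT, 0 of 10 genes passed by edgeR, and 0.0% of all genes were called higher and 0.0% lower. At an unadjusted edgeR p under 0.05, 2 of the 10 genes and 746 of 16731 genes tested (4.46%) were counted. DESeq2 called 0 of the 10 genes and 77 of the 16731. Those 2 genes were Akr1c14, with a log2 fold change of -1.55 ± 0.47 over WT, and Akr1b3, with -0.95 ± 0.41. WT lay inside the empty vector range for Cbr1, Akr1b8, Ptgr1, Aldh3a1 and Ephx1, and above it for the other 5 genes. Over all genes tested, WT lay inside that range for 55.7% and above it for 22.7%. With the replicate block over all 7 libraries, 0 of 10 genes passed by edgeR, where 0.0359% of all genes were called higher and 0.0837% lower.

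Between fusion and WT, Cbr3 (3.45 ± 0.54 on the log2 scale) and Ephx1 (2.84 ± 0.44) passed, each at an edgeR adjusted p of 0.045. That is 2 of 10, where 0.341% of all genes tested were called higher and 0.0956% lower. The count fell to 0 without empty vector replicate 2, fusion replicate 1 or fusion replicate 2, and DESeq2 called 5 of 10, adding Nqo1, Cbr1 and Aldh3a1, where it called 2.19% of all genes higher and 0.789% lower. With the replicate block 4 of 10 were higher by edgeR, adding Cbr1 (adjusted p = 0.027) and Aldh3a1 (0.033), where 4.57% of all genes were called higher and 5.25% lower. Aldh3a1 (4.38 ± 0.91), Cbr1 (2.30 ± 0.39) and Nqo1 (1.67 ± 0.39) had edgeR adjusted p-values of 0.11, 0.061 and 0.15. Akr1c14 had a log2 fold change of 0.46 over WT, with a 95% interval of -0.73 to 1.65, and Akr1b3 one of -0.12, both smaller than their fitted values over empty vector, a difference that was not tested.

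The genes whose profile over the 7 libraries lay nearest to that of Nqo1 were Fam189a2, Gstm1, Srxn1, Entpd5 and Gclm, at root mean square distances of 0.239 to 0.259 on the log2 scale after centring, among 9754 genes. Srxn1, sulfiredoxin, averaged 141 CPM with empty vector and 546 CPM with the fusion, and Gclm, the regulatory subunit of glutamate-cysteine ligase, 107 and 458 CPM. For Akr1b8 they were Bivm, Rab6a, Golph3, Ppa2 and Lzic at distances of 0.0399 to 0.0496. For Aldh3a1, sought among 16656 genes down to 0.1 CPM, they were Hpgds, Parm1, Sp8, Kirrel2 and Clca3b at distances of 0.544 to 0.714. Of these, Hpgds, a prostaglandin synthase, averaged 0.0359 CPM with empty vector and 4.58 CPM with the fusion, and Parm1 0.80 and 25.8 CPM. The distances for Aldh3a1 were larger than those for Nqo1 and Akr1b8, but they are not on like terms. The floor was a mean of 0.1 CPM for Aldh3a1 and of 10 CPM for Nqo1 and Akr1b8. At such low levels a distance depends more on counting error and on the 0.1 CPM added before taking logs.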

How the data were processed

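The deposited values are whole-number read counts per gene, 1 table per sequencing lane, 12 tables for 7 libraries. STAR, HTSeq and the build GRCm38 made these counts per the submitters' processing notes. Their versions, the annotation and the strand setting were not stated there or in the labels. Lanes of a library were summed. Summary rows of unassigned reads and 92 ERCC control rows were left out of depth and tests, while gene rows without a symbol were kept. Of the reads, 5.726 to 6.927% lay outside genes, 1.222 to 1.479% were ambiguous and 36.1 to 45.32% aligned to several places. Symbols, positions, transcript lengths and shared 50-base stretches come from GENCODE M21.

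Counts were fitted with edgeR 4.0.16 in R 4.3.3 (TMM factors, filterByExpr with a minimum count of 10, robust quasi-likelihood test, Benjamini-Hochberg adjustment over all 16731 genes tested, threshold 0.05), after a check on simulated data. CPM are TMM scaled, and CPM per kb divide by the transcript with the longest coding sequence. Floors of 3 counts equal 0.0503 to 0.114 CPM and cover counting error only. The fusion and empty vector libraries entered the first fit, and all 7 the comparisons with WT. Nearest profiles used log2(CPM + 0.1). Alternatives were DESeq2 1.42.0, RLE factors, no filter, other sets of libraries and a block for the replicate number. Libraries of the same number, which the labels give, deviated from their group means together (r = 0.574, 0.53 and 0.504 across genes), while those of unlike number had r of -0.46 to -0.0493. Centring on group means makes the unlike values negative on balance once the like ones are positive, so they are no separate contrast. Lanes 5 and 6 held WT and numbers 1 and 2, lane 1 the third empty vector library and lane 2 the third fusion library. The named genes are the 10 genes, relatives listed by role, genes linked to the aryl hydrocarbon receptor, the fusion partners and the 5 nearest profiles of Nqo1, Akr1b8 and Aldh3a1. Members and lists were chosen with earlier results of these data known. A list of prostate markers is not reported here.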

Additional observations from a re-analysis of the deposited data

How the results depend on the processing

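Across the alternatives tried for the comparison of fusion with empty vector, Cbr1, Cbr3 and Ephx1 passed in every fit. Nqo1 and Aldh3a1 passed in every fit without the block. With the replicate block and without number 2 in both groups, an alternative added after the data were seen, Nqo1 had an adjusted p of 0.08, Aldh3a1 of 0.062 and Akr1c14 of 0.10 by edgeR, and Aldh3a1 had 0.055 in the block over replicates 1 and 2. Akr1c14 had an edgeR adjusted p of 0.10 with replicates 1 and 2 only, all from lanes 5 and 6. The count of the 10 genes that were higher ranged from 5 to 6 when 1 library was left out. With the replicate block it was 8, then 7 over replicates 1 and 2, 7 without number 1 (Akr1b3 lost, edgeR adjusted p = 0.062) and 5 without number 2. In each of these fits 0 were lower. The count of all genes moved more. Of 282 higher and 59 lower genes, the block gave 1276 and 920, the block over replicates 1 and 2 gave 1873 and 1403, the block without number 1 gave 810 and 679, the block without number 2 gave 297 and 124, and DESeq2 gave 622 and 300. Without the filter on low counts 133 were lower. Leaving out 1 library gave 127 to 298 higher and 12 to 75 lower genes. The counts against WT that follow are again of the 10 genes. Against WT, the count of genes higher with the fusion was 5 by DESeq2, 4 with the replicate block over all 7 libraries, added after the data were seen, and 0 to 3 when 1 library was left out. Between empty vector and WT the block gave 0 in either direction. Without 1 library the log2 ratio of Cbr3 to Cbr1 differed by 1.08 to 1.50, that of Akr1b8 to Akr1b3 by -1.14 to -0.59, and that of Akr1c13 to Akr1c14 by -1.61 to -0.20. The cause of these shifts was not tested. Akr1c13 and Ephx2 rest on few counts, and most of the checked Akr1b3 transcript is shared with other genes.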
